A study of Homo sapiens with 3 samples.

Results

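The Notch pathway was followed in A375 cells through 10 genes, which were picked by symbol from the 58037 genes of the count file. These were the receptors NOTCH1, NOTCH2 and NOTCH3, the ligands JAG1, JAG2 and DLL1, and the downstream genes HES1, HEY1, HEY2 and NRARP. A375 is an established human melanoma cell line. Cells were kept for 24 h in serum-free DMEM (control) or in the secretome of young (YA-A375) or old (OA-A375) adipocytes, which is serum-free DMEM conditioned by fat cells that had been differentiated in culture from human subcutaneous preadipocytes. The control medium had not been in contact with any cell, so the effect of conditioning itself and that of adipocytes cannot be told apart in either comparison with control, and only YA against OA sets 1 conditioned medium against the other. Which donors gave these secretomes is not stated. In the study's donor list the old donors were all men and mostly from a biobank. Its young donors were mostly women whose cells were purchased, so donor age cannot be told apart from sex and source. Each group had 1 library, so no difference below has a replicate check and no test of a condition was possible.

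Notch is a signal between touching cells. A ligand of the Jagged or Delta family on one cell binds a NOTCH receptor on its neighbor, the receptor is cut by ADAM proteases and then by gamma-secretase, and the freed intracellular part enters the nucleus and joins the DNA-binding protein RBPJ and a Mastermind coactivator to switch on genes such as HES1, HEY1, HEY2 and NRARP. HES and HEY proteins are transcriptional repressors, and HES1 also represses its own gene. In the melanocyte lineage the pathway is known for keeping melanocyte stem cells, and HES1 and JAG1 are both also controlled by signals other than Notch.

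HES1 was lowest and JAG1 and NOTCH2 were highest in the same library, OA, and the promoters of these 3 genes are shown for that reason. Sequences are from RefSeq on GRCh38.p14, 5′ to 3′ on the strand of the gene, from base -200 to base -11, where 0 is the annotated first base of the transcript. Capitals mark TGGGAA, the core letters of the RBPJ motif. The windows are chr3:194135948-194136137 (plus strand) for HES1, chr20:10674010-10674199 (minus strand) for JAG1 and chr1:120069673-120069862 (minus strand) for NOTCH2, all upstream of the transcribed region.
HES1: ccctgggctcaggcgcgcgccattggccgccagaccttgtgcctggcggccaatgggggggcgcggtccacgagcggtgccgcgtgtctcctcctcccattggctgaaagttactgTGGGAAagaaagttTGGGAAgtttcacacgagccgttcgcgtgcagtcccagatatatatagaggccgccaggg
JAG1: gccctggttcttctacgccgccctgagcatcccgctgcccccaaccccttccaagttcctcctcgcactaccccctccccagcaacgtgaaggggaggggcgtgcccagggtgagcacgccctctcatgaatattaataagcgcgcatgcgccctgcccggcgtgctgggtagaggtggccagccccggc
NOTCH2: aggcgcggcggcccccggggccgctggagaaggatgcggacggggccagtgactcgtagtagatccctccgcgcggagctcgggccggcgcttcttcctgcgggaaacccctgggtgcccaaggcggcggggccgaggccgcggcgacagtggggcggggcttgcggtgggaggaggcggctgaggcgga

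The search for TGGGAA used both strands and the whole RefSeq window, from 250 bases before to 50 bases from the start. Such a window was found for 8 of the 10 genes, the exceptions being HEY1 and DLL1. In HES1 the letters stood at -84 and again at -70, both on the strand of the gene. HEY2 also had 2 matches, at -213 on the opposite strand and at -3. The gene position given below for HEY2, from another annotation, begins at 125747664 on chromosome 6. Both matches, from 125749419 and from 125749629, lie inside that span and not upstream of it. The windows of the other 6 genes held none. Of 35116 promoter windows, 24.0% held at least 1 match and 3.80% held 2 or more. The longer form GTGGGAA, which contains the core, was present in 6.25% of windows, and it was met by both HEY2 matches and by the HES1 match at -84 but not by the one at -70. The N-box CACNAG, a sequence bound by HES proteins, had 4 matches in the HES1 window, at -165, -132, -58 and 15, 2 overlapping ones in NOTCH1 and 1 each in NOTCH2, NOTCH3 and NRARP. Of all windows, 38.0% had at least 1 and 8.94% had 2 or more. The E-box CACGTG, present in 7.26% of windows, was found in none of the 8. These matches describe letters only and say nothing of binding.

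Library totals were between 18089008 counts in OA and 21448195 in control. Normalised counts are counts divided by a library's size factor (0.891 to 1.06). Where 3 values follow each other without labels, they are in the order control, YA and OA. As a check of the cell label, 8 markers of the melanocyte lineage were examined. MITF and S100B were well counted in all libraries and MLANA had between 16 and 22 counts. PMEL had 2, 10 and 10 counts and TYRP1 6, 3 and 3, while SOX10, TYR and DCT had between 0 and 2. In each library 4 of the 8 markers had more than 3 counts, so the list bore out the label only in part. Markers of vessel cells, in which Notch genes are also prominent, were summed as well. For 6 endothelial markers, 6, 6 and 5 of which had more than 3 counts, the summed normalised counts were 275, 268 and 129. The sum was lowest in OA, as were HES1 and HEY2. KDR had 180, 190 and 65 counts, ESAM 45, 33 and 10, VWF 19, 27 and 7 and CDH5 10, 5 and 1. The remaining markers differed: PECAM1, with 32, 18 and 23 counts, was lowest in YA, and TEK, with 6, 10 and 9, was lowest in control. The part of endothelial markers in the results for HES1 and HEY2 was not tested. The sum of 5 mural-cell markers lay between 18800 and 28180 and was mostly CSPG4, which melanoma cells express themselves, and it was highest in YA. Of 8 adipocyte markers, ADIPOQ and LEP had at most 1 count in any library, 5, 6 and 4 markers had more than 3 counts, and the summed normalised counts were 2139, 3003 and 2156. Most of that sum was PPARG. LPL, with 353, 583 and 30 counts, and FABP4, with 16, 15 and 2, were lowest in OA, as was HES1. PLIN4, with 284, 579 and 321 counts, and CIDEC, with 6, 31 and 36, were not. After normalisation both, like PPARG, were lowest in control. Of 8 fibroblast markers, 5, 4 and 5 had more than 3 counts, COL1A2 and COL3A1 not among them, the sums were 224, 359 and 255, and DCN had 13, 138 and 24 counts. Of the fibroblast list DCN ranged most, from 12.3 to 130 after normalisation. COL1A1, with 75, 117 and 84 counts, and LUM, with 66, 101 and 58, were also highest in YA. PDGFRA, with 76, 20 and 51, was lowest in YA. The sums of the adipocyte and fibroblast lists were highest in YA, as was HES1, though not every marker on them was. The part of these lists in the results for HES1 was not tested.

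Levels were first compared between genes, as counts per kb of merged exon and per 1000000 counts. In control HES1 had the highest level, 36.0, followed by NOTCH2 at 18.8, NOTCH1 at 8.65 and JAG1 at 2.12. NOTCH3 had 1.32, HEY1 1.197 and HEY2 0.953. The counting intervals of NOTCH3 and HEY1 overlapped, as did those of HEY1 and HEY2, so the order of these neighbors was not settled at this depth. JAG2, DLL1 and NRARP were at 0.0578 or less, with overlapping intervals. In YA the order of the leading 7 was the same. In OA it was changed at the top, with NOTCH2 first at 35.9, NOTCH1 at 11.2, HES1 next at 8.93 and JAG1 at 6.87, and no intervals among these 4 overlapped between neighbors. Here and below, intervals are at 95% and cover counting error only: reads were amplified and carry no molecular identifier, so they are not independent, and an interval compares libraries rather than conditions.

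**Figure D1:**
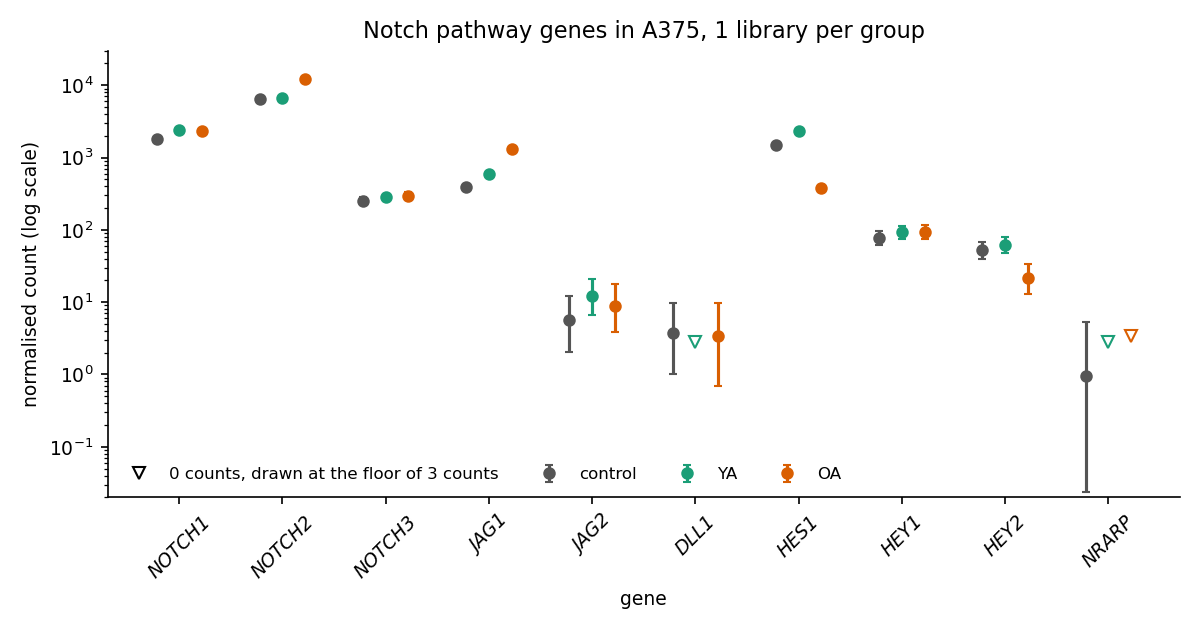
Normalised counts of the 10 Notch pathway genes (log axis) in the control, YA and OA libraries, with exact 95% Poisson intervals as bars. Open triangles stand for 0 counts and are drawn at the floor of 3 counts. HES1 was at 374 in OA and at 1501 in control, and JAG1 and NOTCH2 were highest in OA.

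HES1, the repressor that is the most widely used readout of Notch signaling, differed most among the 10 genes. HES1 (ENSG00000114315.3; GRCh38 chromosome 3, 194136145 to 194138732, plus strand) was counted 1593, 2446 and 333 times, or 1501, 2312 and 374 after normalisation. It was highest in YA and lowest in OA, and no counting intervals overlapped. Its level in OA was 4.02-fold lower than in control (interval 3.57 to 4.53), the 132nd lowest fold change of the 14413 genes whose normalised counts averaged 20 or more. In YA it was 1.54-fold higher than in control (1.44 to 1.64). Between the secretomes HES1 was 6.19-fold higher in YA (5.51 to 6.96), the 64th highest of the same genes.

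HEY2 (ENSG00000135547.8; chromosome 6, 125747664 to 125761269, plus strand), a related repressor best known from vessels and heart, had 56, 66 and 19 counts. OA was again the lowest library, 2.47-fold below control (1.45 to 4.41) and 2.92-fold below YA (1.73 to 5.16), whereas YA and control were not distinguishable (1.18-fold, 0.815 to 1.72). HEY1, its close relative, did not share this pattern. With 83, 98 and 83 counts, it was 1.19-fold of control in OA (0.868 to 1.63), an interval that does not reach a decrease as large as that of HES1. NRARP, a small ankyrin-repeat protein that restrains Notch and is itself switched on by it, had 1 count in control and 0 in both secretomes. Taken as 3 counts, the limit that a count of 0 allows is 0.141 counts per 1000000 in YA and 0.166 in OA, and no fold change can be given.

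JAG1 had the highest level per length of the Jagged and Delta (DLL) ligands in every library. JAG1 (ENSG00000101384.11; chromosome 20, 10637684 to 10673999, minus strand) was counted 422, 617 and 1156 times, or 398, 583 and 1298 after normalisation. The 3 libraries were separate, with OA highest. In OA it was 3.26-fold higher than in control (2.92 to 3.66), the 116th highest fold change of the 14413 genes, and in YA 1.47-fold higher (1.29 to 1.66). YA was 2.23-fold below OA (2.02 to 2.46). An antisense gene, AL050403.2, shares 79 bases of its exons with JAG1, 0.85% of JAG1's exon length. Since the use of strand in counting was not stated, reads of the pair could not be told apart there. JAG2 and DLL1 were barely present. JAG2 had 6, 13 and 8 counts, and the 2.17-fold value for YA was not distinguishable from 1 (0.771 to 6.97). Of its exon bases, 7.33% are shared with AL512356.1. DLL1 had 4, 0 and 3 counts, so differences were not detectable at this depth.

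NOTCH2 was the receptor with the highest level in all 3 libraries. NOTCH2 (ENSG00000134250.18; chromosome 1, 119911553 to 120069626, minus strand) was counted 6781, 6958 and 10902 times, or 6390, 6576 and 12240 after normalisation. YA and control were alike within 1.03-fold (0.995 to 1.06), and OA stood above both. Its level in OA was 1.92-fold that of control (1.86 to 1.97) and 1.86-fold that of YA (1.81 to 1.92). Human NOTCH2 has near-identical partial copies, which makes counts uncertain at the shared exons. The copy named NOTCH2NL in the file had 60, 30 and 24 counts, few beside NOTCH2 and below control in both secretomes.

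NOTCH1 (ENSG00000148400.9; chromosome 9, 136494433 to 136545786, minus strand) was counted 1925, 2547 and 2105 times, or 1814, 2407 and 2363 after normalisation. Both secretomes were above control, by 1.33-fold in YA (1.25 to 1.41) and 1.30-fold in OA (1.22 to 1.39), and the secretomes could not be distinguished from each other (1.02-fold, 0.961 to 1.08). NOTCH3, the receptor prominent in vascular smooth muscle, had 266, 297 and 262 counts. Its fold changes of 1.12 in YA (0.946 to 1.33) and 1.17 in OA (0.985 to 1.40) had intervals that include 1.

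**Figure D2:**
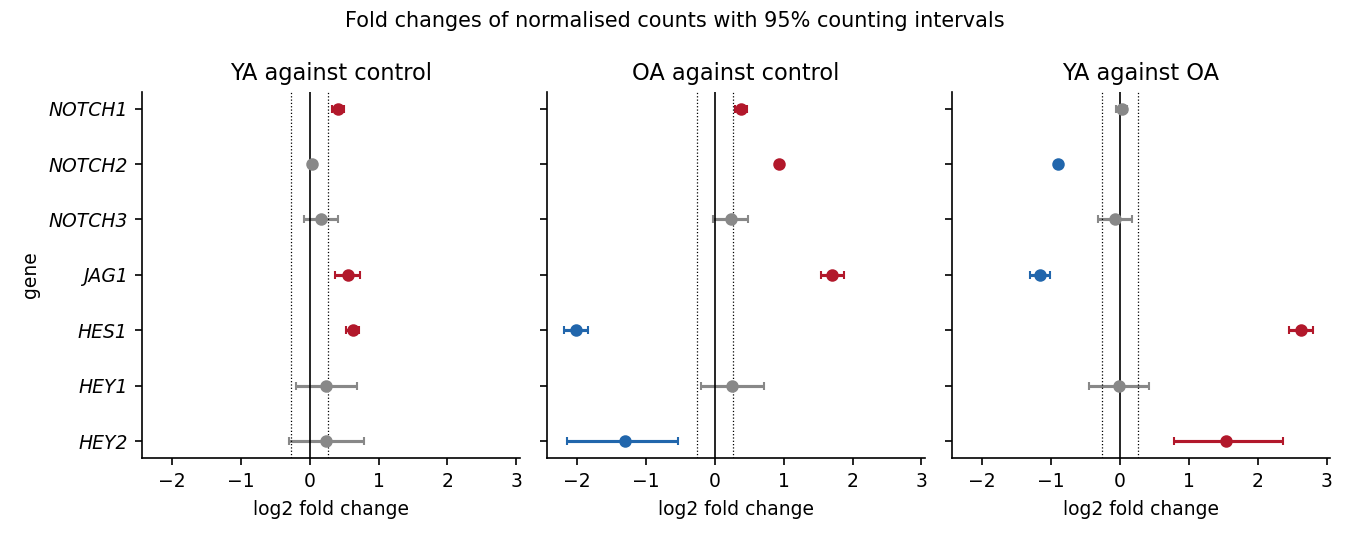
Log2 fold changes of normalised counts for the 7 genes with a mean of at least 20, in 3 comparisons, with 95% counting intervals. Red and blue mark genes called higher and lower, grey those not called, and dotted lines 1.2-fold. HES1 and HEY2 lie left of 0 and JAG1, NOTCH2 and NOTCH1 right of it in OA against control.

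For counts of genes, a gene was called higher or lower where it differed by at least 1.2-fold, the cutoff named in the study's methods and read here as a linear fold, and where its counting interval lay wholly on that side of 1. The expression filter, a mean normalised count of 20, was passed by 7 of the 10 genes and not by JAG2, DLL1 and NRARP. In YA against control NOTCH1, JAG1 and HES1 were called higher and none lower, where 12.7% of all 14413 genes were called higher and 12.0% lower. In OA against control NOTCH1, NOTCH2 and JAG1 were called higher and HES1 and HEY2 lower, where 16.7% of all genes were called in each direction. In YA against OA HES1 and HEY2 were called higher and NOTCH2 and JAG1 lower, beside 18.4% and 17.6% of all genes. YA and OA were compared with the same control library.

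Scaling between libraries does not enter the ratio of 2 genes within a library. Apart from that, such ratios restate the fold changes given above and are not separate evidence. For each JAG1 read, the control library held 3.77 HES1 reads (3.39 to 4.21), the YA library 3.96 (3.63 to 4.34) and the OA library 0.288 (0.254 to 0.326). The ratio in OA stood alone, 13.1-fold below control (11.1 to 15.5), while that of YA was 1.05-fold that of control (0.911 to 1.21). HES1 reads per NOTCH2 read were 0.235, 0.352 and 0.0305, which put OA 7.69-fold below control (6.80 to 8.71). NOTCH1 reads per NOTCH2 read were 0.284, 0.366 and 0.193, highest in YA and lowest in OA.

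Summed per length, the 4 receptors came to 28.9, 32.6 and 48.8. NOTCH2 made up 65.0%, 59.6% and 73.5% of these sums. NOTCH1 supplied 29.9%, 35.3% and 23.0%, and NOTCH4, with 32, 34 and 26 counts, 0.529% or less. Among 7 ligand genes, whose sums were 7.68, 9.25 and 11.7, JAG1 held 27.55%, 33.65% and 58.7%, and the atypical DLK2 held 49.95%, 54.0% and 22.4%. The leading ligand transcript was therefore DLK2 in control and YA and JAG1 in OA. The HES and HEY genes with NRARP summed to 41.9, 63.5 and 16.9, of which HES1 was 86.0%, 87.6% and 52.9%. Receptor and ligand sums were thus highest, and the HES and HEY sum lowest, in OA. The low sum rested on HES1: without HES1 the family came to 5.85, 7.85 and 7.96, lowest in control.

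**Figure D3:**
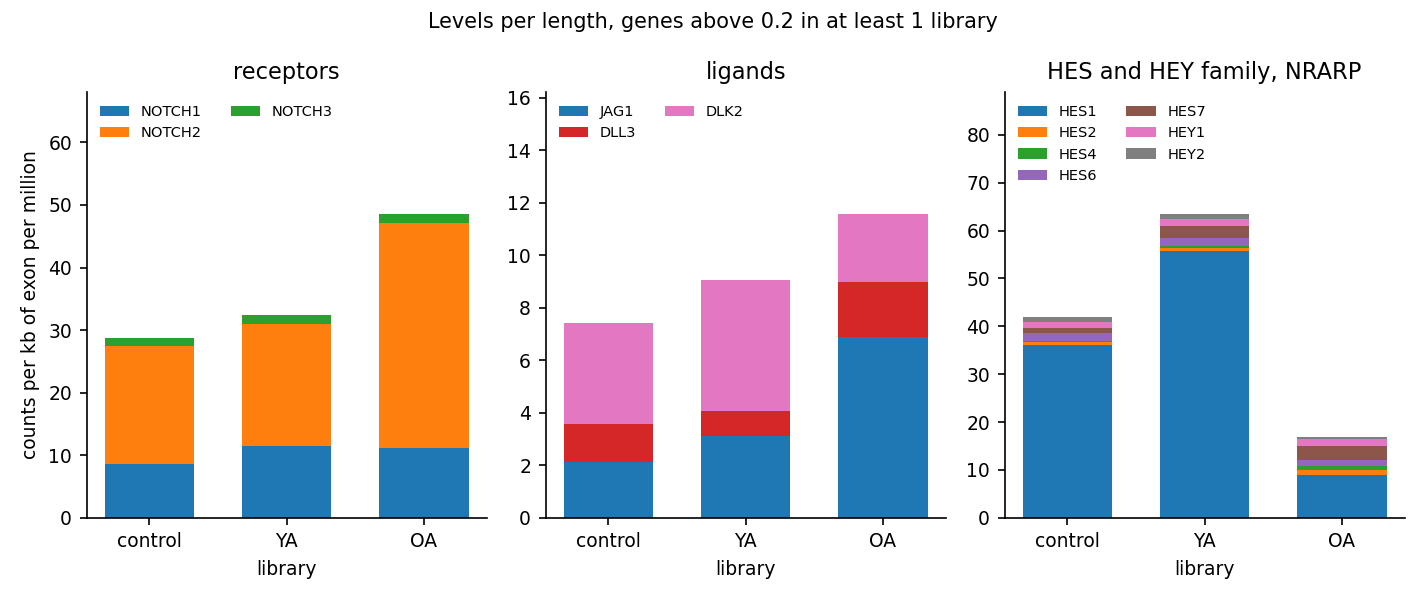
Stacked levels per length (counts per kb of exon and per 1000000 counts) of the receptors, the ligands and the HES and HEY family in each library, for genes above 0.2 in at least 1 library. The receptor and ligand bars are tallest in OA, where the HES1 segment is shortest.

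The pathway was then read more widely, in a list of 72 genes by role that held the 10 above, of which 64 passed the expression filter. Against control, 15 were called higher and 5 lower with YA, and 15 higher and 12 lower with OA, and when YA was set against OA the numbers were 14 and 9. As shares these were 23.4% and 7.81% with YA, beside 12.7% and 12.0% of all genes, 23.4% and 18.8% with OA, beside 16.7% in each direction, and 21.9% and 14.1% for YA against OA, beside 18.4% and 17.6%. Several are near the share of all genes. Without the 10 genes, 57 were tested, and the numbers were 12 and 5 (21.1% and 8.77%), 12 and 10 (21.1% and 17.5%), and 12 and 7 (21.1% and 12.3%). The shares called lower were then near or under those of all genes. In the counts by role that follow, each gene weighs so much that they are read as a description only. The median log2 fold changes of the 64 were 0.10, 0.03 and 0.03, beside -0.02, 0.01 and -0.01 over all genes tested.

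Among other HES genes, HES7, an oscillating repressor of the segmentation clock, went against HES1 in OA. It had 40, 102 and 102 counts, and was 2.56-fold higher in YA (1.76 to 3.79) and 3.04-fold higher in OA (2.09 to 4.50). HES2 had 69, 88 and 108 counts and was 1.87-fold higher in OA (1.37 to 2.56). HES6, which opposes HES1, had 80, 69 and 42 counts and was 1.60-fold lower in OA (1.09 to 2.38). The low values of HES1 and HEY2 in OA were thus shared by HES6 but not by HES7 or HES2. HES4 had 6, 9 and 18 counts, under the filter, and HES5 and HEYL had 0 in all libraries.

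Other ligands were few. DLL3, a Delta protein that acts mostly inside its own cell, had 82, 53 and 99 counts, and was 1.54-fold lower in YA (1.08 to 2.22) and 1.44-fold higher in OA (1.06 to 1.95). DLL4, the Delta ligand of sprouting vessels, had 17, 10 and 1 counts, and its level in OA was 0.0701 of that in control (0.00168 to 0.447). It lay under the expression filter. DLK2, a relative that lacks the receptor-activating domain, had 184, 238 and 106 counts, lowest in OA and 1.89-fold higher in YA than in OA (1.50 to 2.40). JAG1 and DLL3 were thus the ligands that were highest in OA, and DLK2 and DLL4 those that were lowest.

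Of the 5 sugar transferases that modify the receptors, the Fringe enzymes MFNG and RFNG were highest in YA. MFNG had 33, 75 and 34 counts and was 2.28-fold higher in YA than in control (1.495 to 3.55) and 1.86-fold higher than in OA (1.22 to 2.87). RFNG had 396, 493 and 331 counts and was 1.25-fold higher in YA than in control (1.09 to 1.43) and than in OA (1.09 to 1.45). Of RFNG's exon bases, 21.6% are overlapped, with 835 bases shared with GPS1 on the opposite strand, where reads could not be told apart. LFNG, the remaining Fringe enzyme, had 166, 178 and 172 counts and was not called. POGLUT1, which adds glucose to the receptors, had 564, 441 and 363 counts and was lower in both secretomes, by 1.28-fold in YA (1.12 to 1.45) and 1.30-fold in OA (1.14 to 1.49). Among ubiquitin ligases that act on ligands, MIB2 had 1023, 1004 and 559 counts and was 1.54-fold lower in OA than in control (1.38 to 1.71). Of 9 cleavage genes, APH1B was called higher in YA (11.1%, beside 12.7% of all genes) and FURIN and APH1B in OA (22.2%, beside 16.7%), and 0 were called in YA against OA, beside 18.4% and 17.6%. NUMB, which directs receptors to degradation, had 1132, 1311 and 1325 counts and was 1.39-fold higher in OA (1.29 to 1.51).

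In the nucleus RBPJ, the DNA-binding partner of all NOTCH receptors, had 5005, 3906 and 3067 counts. It was below control in both secretomes, 1.28-fold in YA (1.22 to 1.33) and 1.37-fold in OA (1.31 to 1.43). MAML3, a Mastermind coactivator, had 1306, 933 and 769 counts and was likewise lower, by 1.40-fold in YA (1.28 to 1.52) and 1.43-fold in OA (1.30 to 1.56). The acetyltransferase EP300 had 1873, 2450 and 1637 counts and was 1.31-fold higher in YA (1.23 to 1.39) and 1.04-fold of control in OA (0.974 to 1.11). Of 9 activators, 2 were called higher and 2 lower in YA, 22.2% each way beside 12.7% and 12.0% of all genes, and 0 higher and 3 lower in OA, the latter 33.3% beside 16.7%. RBPJ and MAML3 thus did not differ in direction between the secretomes, unlike HES1.

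Among 12 repressors, the Groucho-type corepressors of HES proteins moved in different directions. TLE1 had 843, 1057 and 1177 counts and was 1.66-fold higher in OA than in control (1.52 to 1.82). TLE2 had 115, 122 and 48 and was 2.01-fold lower in OA (1.42 to 2.88). TLE4 had 2443, 2007 and 1884 and was 1.21-fold lower in YA (1.14 to 1.29). FHL1, of which 1 isoform binds RBPJ, had 229, 251 and 300 counts and was 1.56-fold higher in OA (1.31 to 1.86).

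**Figure D4:**
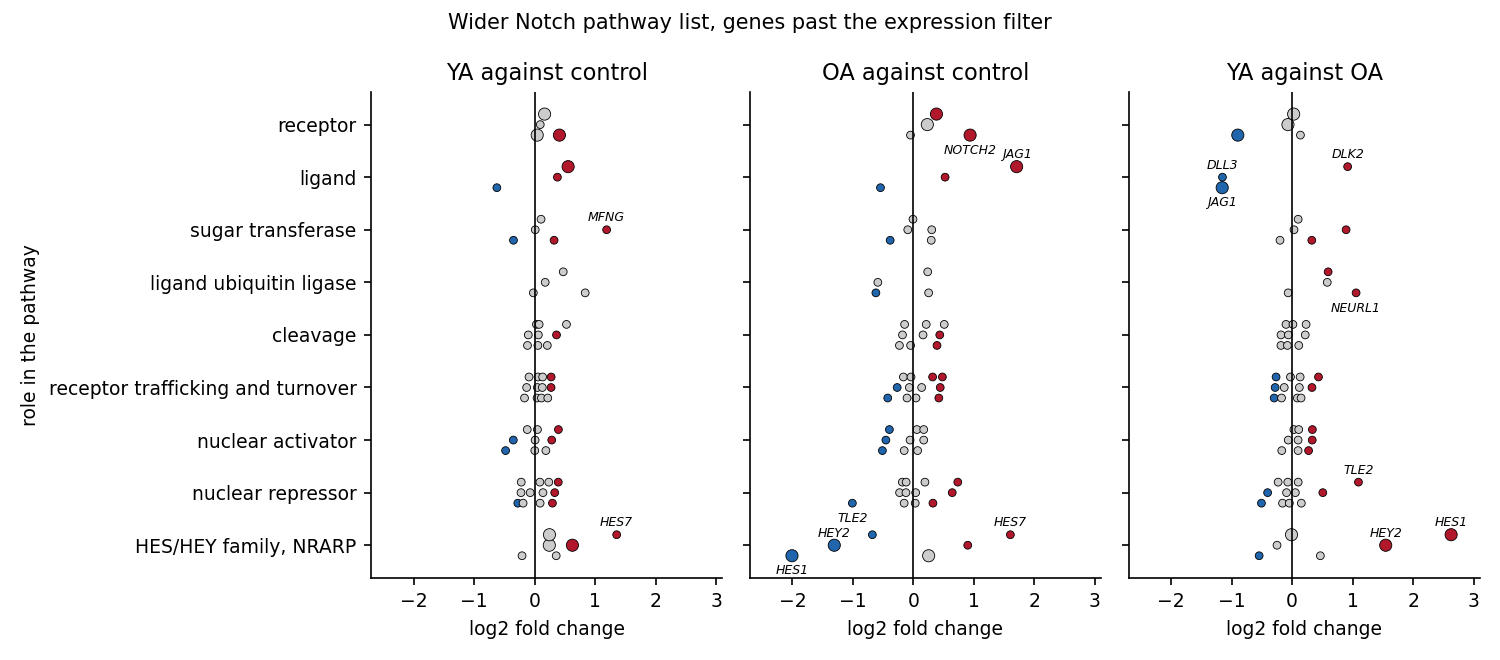
Log2 fold changes of the 64 genes of the wider Notch list that passed the expression filter, by role, in 3 comparisons. Large points are the genes the account is built on, and red, blue and grey mark genes called higher, lower and not called. HES1 and HEY2 are furthest left and JAG1 and HES7 furthest right in OA against control.

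Genes whose pattern over the 3 libraries was nearest to that of HES1 were found by the distance between pairs of log2 fold changes, YA and OA against control, among the 11162 genes whose normalised counts averaged 100 or more. The nearest were OSR2 (distance 0.17, with 333, 500 and 62 counts), NPTX2 (0.24, with 257, 337 and 56), HAPLN1 (0.28, with 6049, 10909 and 1407), CTD-2561J22.5 (0.40) and ZNF469 (0.47). Both fold changes rest on the same control library, and with 3 libraries the likeness is a description only.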

How the data were processed

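Poly(A) RNA of 3 libraries (control, YA and OA, 1 each) was sequenced on an Illumina NovaSeq. The exposure is 24 h in the study's methods, while the protocol common to all samples allows a longer one. The authors deposited raw counts per gene. The submitters' processing notes name STAR 2.5.1b, featureCounts, R 3.6.1 and hg38; the annotation release and the use of strand are not given in the sources used here. Each gene's fold change was the ratio of normalised counts (DESeq2 1.42.0 size factors), with a 95% Clopper-Pearson interval conditional on the sum of both counts and 0 counts raised to a floor of 3 in the point value. With 1 library per group, edgeR's and DESeq2's tests were not possible. Calls were made over 14413 genes, those whose normalised counts averaged 20 or more. The 10 genes and all lists were chosen with earlier results of these data known. From the wider list, 10 genes were named whatever their values, plus up to 3 called genes per direction and comparison with the furthest interval bound, with markers where their list is described and the 5 genes nearest to the widest-ranging of the 10. A gene selected so is not reported here. FURIN, APH1B, RFNG and NOTCH2NL lie outside that rule and were chosen after their values were seen. Gene lengths, positions and overlaps came from GENCODE release 29 on GRCh38, which held 57433 of 58037 identifiers when versions were ignored and 56 of the 72 listed genes at the same version, so lengths may differ from the models counted. Calculations used R 4.3.3, edgeR 4.0.16 (TMM) and Python 3.11.15 with scipy 1.17.1, pandas 2.3.3, matplotlib 3.10.9 and numpy 2.4.6. The code for the intervals was run on simulated independent Poisson counts. The intervals assume such counts, so that run checks the code and not how well they hold for amplified reads.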

Additional observations from a re-analysis of the deposited data

How the results depend on the processing

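No paired analysis was possible because each group had 1 library, and for the same reason no library could be left out. All 26 fold changes of the 10 genes stayed inside their counting intervals with a pseudocount of 5 or with TMM or total-count scaling. The numbers called among the 10 genes and the wider list, also without the expression filter or at 1.2-fold alone, stayed within 1.5 times. The shares of all genes called did not stay so without the filter. They were then 6.19% to 10.1% of genes with any count, beside 12.0% to 18.4% with the filter. The scaling alternatives moved all log2 fold changes of a comparison by -0.01 to 0.01. A minimum mean of 100 also removes HEY1 and HEY2 and leaves NOTCH1, NOTCH2, NOTCH3, JAG1 and HES1 of the 10 genes. Of these, 1 (HES1) was called lower with OA than with control, beside 16.6% of the 11162 genes with that mean. Again 1 (HES1) was called higher with YA than with OA, beside 17.1%. At 2-fold, 0 were higher with YA and 1 (JAG1) was higher with OA, both relative to control, and 1 was lower with YA than with OA. Of the 64 genes of the wider list that passed the filter, at 2-fold relative to control, 2 were higher and 0 lower with YA. With OA 2 were higher and 3 lower. Between the secretomes, YA had 4 higher and 2 lower. With the interval wholly beyond 1.2-fold, YA had 7 higher and 2 lower and OA 10 higher and 7 lower relative to control, while YA relative to OA had 9 higher and 4 lower. These stricter rules lower the counts by construction. At 2-fold, between 1.08% and 4.53% of all genes were called in a direction, and with the interval beyond 1.2-fold between 4.44% and 10%. The depth does not resolve JAG2, DLL1 or NRARP, and no setting addresses the spread between cultures.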
